A study of Bos taurus with 12 samples.

Results

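The m6A map of bovine myotubes is the list of regions in which RNA pulled down with an antibody against N6-methyladenosine (m6A) was enriched over input RNA after 4 days in differentiation medium (DM). All 20790 peaks of this list were taken, out of 40529 peaks in both lists of the series, and each was described through the gene that the authors' annotation gives it. The cells were primary myoblasts taken from the back muscle (longissimus dorsi) of a newborn Qinchuan calf, grown to near confluence and then switched from fetal bovine serum to low horse serum, which induces fusion into myotubes. Poly(A) RNA of 3 DM samples was fragmented, and each sample gave an input library and an immunoprecipitated (IP) library. The study's methods speak of a single newborn animal as the source of the myoblasts, so the spread between the 3 inputs is one between cultures or libraries and is not a measure of variation between animals. The peaks were called by the authors on the DM libraries together, so a peak has 1 fold enrichment (IP over input read density in the peak) and no replicate error, whereas the transcript level of a gene has 3 input values in FPKM (fragments scaled to transcript length and library size).

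m6A is placed on mRNA by a methyltransferase complex built on METTL3 and METTL14, is removed by the demethylases FTO and ALKBH5, and is bound by YTH domain proteins and other readers that affect splicing, translation and decay. In mammalian mRNA it is known to gather in long internal exons, around stop codons and in 3′UTRs. Fold enrichment is a ratio of read densities and does not give the fraction of molecules that are methylated.

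The DM inputs resembled each other closely. Pearson r of log2(FPKM + 1) across genes was 0.997 for each pair of inputs, FPKM summed to between 386436 and 390827 per library, and the median coefficient of variation of an expressed gene was 5.80%. A gene is called expressed here from a mean of 1 FPKM, which 11213 of 18436 genes in the FPKM table reached. The tables used here cover the 29 autosomes, and genes of the X chromosome were not analysed here. All 21 measured myotube markers were expressed, among them the embryonic myosin heavy chain MYH3 at 659 ± 14.995 FPKM (SD, n = 3) and the myogenic factor MYOG at 243 ± 14.9 FPKM. All 9 fibroblast markers were expressed too, and their summed level of 16962 to 18072 FPKM per library exceeded the 3085 to 3216 FPKM of the myotube markers. Collagen I and III made up most of that sum, and LUM, another of these markers, stood at 521 FPKM. Which cells these transcripts came from was not tested. No measured adipocyte marker (7) or endothelial marker (5) reached 1 FPKM. Of 4 immune markers only CD68 did, at 1.47 ± 0.558 FPKM, and of 2 Schwann cell markers only S100B did, at 9.75 ± 0.570 FPKM. Among 5 smooth muscle markers ACTA2 and TAGLN stood at 1713 and 715 FPKM, and MYH11, the defining one, at 0.529 FPKM. In a culture of mixed cells, fewer cells of a type and less RNA per cell cannot be told apart, and the part of fibroblasts in the peaks was not tested.

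Most expressed genes had at least 1 listed peak. A peak was present in 11665 genes of the FPKM table (63.3% of 18436) and in 8957 expressed genes (79.9% of 11213, 95% Wilson interval 79.1 to 80.6%). The share of genes with a peak was 6.24% among the 834 genes at 0 FPKM in all DM inputs and 24.8% in genes of up to 0.1 FPKM. It was 56.2% between 0.1 and 0.5 FPKM and reached its highest value, 82.5% (80.9 to 83.9%), between 5 and 10 FPKM. Above 500 FPKM only 68 of 113 genes had a peak, which is 60.2% (51.0 to 68.7%). Genes under 1 FPKM nevertheless held 4792 peaks, or 23.0% of the list, in 2708 genes. These intervals treat genes as independent draws and cover counting error only.

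**Figure D1:**
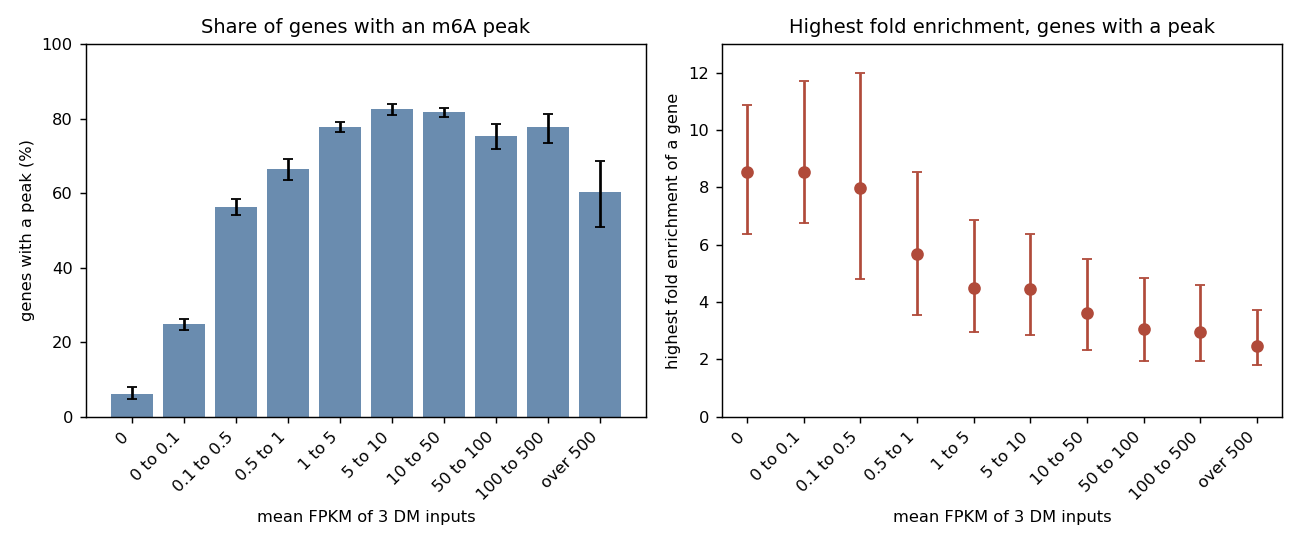
Genes of the FPKM table in 10 bands of mean FPKM in the 3 DM inputs (x axes). Left, bars show the percent of genes with at least 1 peak, with 95% Wilson intervals, from 6.24% at 0 FPKM to 82.5% at 5 to 10 FPKM and 60.2% over 500 FPKM. Right, points show the median of the highest fold enrichment per gene and lines its quartiles, with medians of 8.52 in the lowest bands and 2.47 over 500 FPKM.

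Fold enrichment over all peaks had a median of 3.38, with quartiles of 2.05 and 5.71. Values of at least 10 were found for 1707 peaks (8.21%), of at least 20 for 301 peaks and of at least 40 for 30 peaks. The weakest listed peak stood at 1.04 and the strongest at 149.

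The strongest enrichment of the map lay in RNF219, a ubiquitin ligase that acts at replication origins. RNF219 was a gene of low level, with 2.18, 1.91 and 2.11 FPKM in the 3 inputs. Its 3′UTR peak at 149-fold spanned 1875 nt in 3 exon blocks (ARS-UCD1.2, chr12:53757409-53780536), and a second 3′UTR peak stood at 45.8-fold. HIRA, a chaperone that deposits histone H3.3, followed among expressed genes at 98.0-fold with a single 3′UTR peak of 598 nt in 1 block (chr17:72647476-72648073) and 8.89, 9.20 and 8.87 FPKM. ZNF784, a zinc finger protein, had 86.3-fold enrichment in a 5′UTR peak that also lies over ZNF524 on the other strand. The file gives no strand for a peak, so these reads cannot be assigned to one of both genes from the list. JPH1, which ties the sarcoplasmic reticulum to the T-tubule in muscle, had 65.0-fold enrichment in a peak annotated to the 5′UTR, with 3079 nt in 5 blocks (chr14:37504584-37595533), at 4.63, 4.09 and 4.45 FPKM. The gene itself lies at chr14:37502881-37595533 on the minus strand, so the blocks run from its start to near its 3′ end. The annotated position is a single label per peak, and a peak of several blocks can reach other parts of the transcript.

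An abundant transcript stood among these genes. PDIA3, a protein disulfide isomerase of the endoplasmic reticulum, had 386, 405 and 378 FPKM and a single peak of 61.3-fold, annotated to the 3′UTR and covering 804 nt in 5 blocks (chr21:55390040-55392458). The clathrin assembly protein PICALM had 86.0, 86.2 and 63.9 FPKM, with 53.2-fold enrichment in a 5′UTR peak of 807 nt against 1.40-fold in its 3′UTR. LPCAT1, an enzyme of phosphatidylcholine remodelling, likewise held 2 unequal peaks, at 54.7-fold and 1.2-fold, both in the 3′UTR. The other expressed genes of the top 15 were PTPN12, a tyrosine phosphatase, at 49.9-fold, AEBP2, a cofactor of Polycomb complex 2, at 49.0-fold, the unnamed gene ENSBTAG00000051247 at 49.0-fold, the transcription factor CARF at 44.7-fold, the vesicle fusion factor MON1A at 43.7-fold, the secreted neurexin ligand NXPH3 at 43.1-fold, KLHDC4 at 42.9-fold and the adhesion molecule CADM4 at 42.6-fold. The peak booked to ENSBTAG00000051247 runs past both ends of that gene and over ENSBTAG00000053353, so its gene is uncertain. Levels of these 8 genes ranged from 1.11 FPKM in CADM4 to 15.2 FPKM in PTPN12. Across the 15 genes, 8 strongest peaks were annotated to the 3′UTR, 5 to the 5′UTR and 2 to a first exon.

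Without a condition on FPKM, 3 further entries entered the top 5. The peak at 143-fold was booked to RF01973, an annotated RNA of 67 bases that the FPKM table does not hold. This peak covered 1810 nt in 3 blocks (chr29:49510742-49513379), and its annotated exon belongs to ENSBTAG00000054745, a gene with exactly those ends on the strand opposite to RF01973. ENSBTAG00000054745 was abundant, at 887, 899 and 872 FPKM, and had no peak booked to it. ENSBTAG00000051637, at 121-fold, and ENSBTAG00000046177, at 93.7-fold, were close to silent in the inputs, at 0.246 ± 0.0508 and 0.182 ± 0.0382 FPKM. The former is an entry of 910 bases, shorter than the 2877 nt of its peak.

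From 1 FPKM upward, the median of the highest fold enrichment was lower in each higher band of FPKM. Across the 8957 expressed genes with a peak, Spearman's rho between mean FPKM and the highest fold enrichment was −0.207, and it was between −0.209 and −0.203 for each input taken alone. The median of the highest fold enrichment was 4.50 between 1 and 5 FPKM, 3.63 between 10 and 50 FPKM and 2.94 between 100 and 500 FPKM. This rho runs across genes, which are not independent replicates, and the input reads of the same DM libraries enter both FPKM and the denominator of fold enrichment. The summed peak length of a gene and its highest fold enrichment had a rho of 0.555, and both the sum and the maximum are taken over the peaks of the gene.

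**Figure D2:**
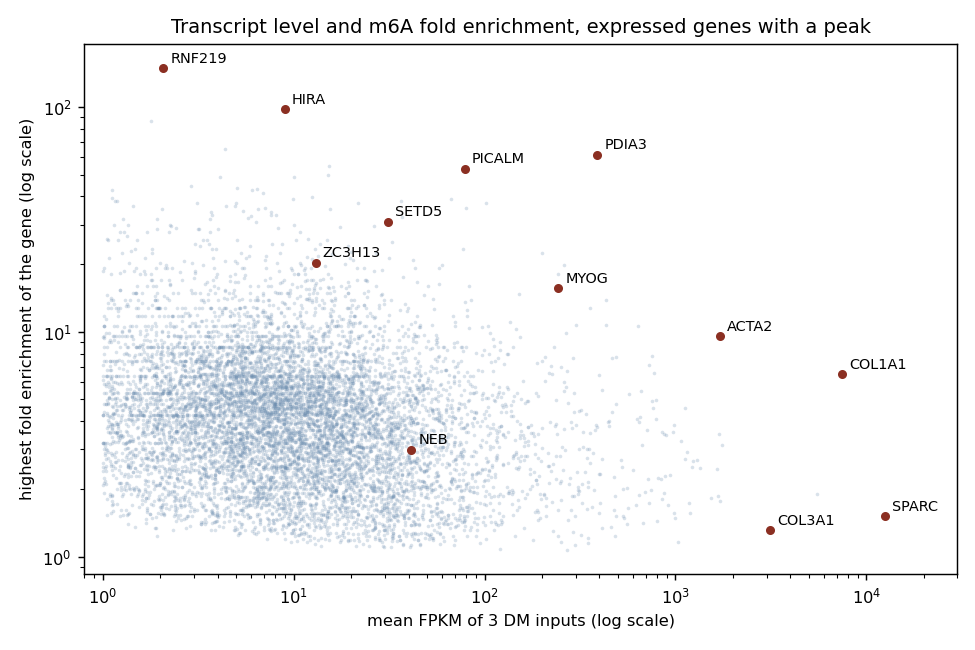
Each point is 1 of the 8957 expressed genes with a peak, by mean FPKM of the 3 DM inputs (x axis, log scale) and highest fold enrichment of the gene (y axis, log scale); 12 genes of the text are marked. PDIA3, at 390 FPKM and 61.3-fold, lies above all other genes of 100 to 500 FPKM, while SPARC, the most abundant gene, lies at 1.51-fold.

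In genes that were nearly silent, fold enrichment took few distinct values. Under 0.1 FPKM, 75.9% of 1179 peaks had a fold enrichment that was a whole multiple of 1.065, against 6.001% of 6865 peaks in genes of at least 10 FPKM. The tolerance was 0.005 for values below 10 and 0.05 from 10 upward. The 3 most frequent values under 0.1 FPKM were 7.45, 8.52 and 9.58, for 167, 148 and 100 peaks. A difference between neighbouring values in such genes is therefore 1 step of the scale. In genes of 1 to under 10 FPKM, 11.4% of 8976 peaks were on a step. HIRA, ZNF784, JPH1, PICALM, AEBP2, ENSBTAG00000051247, CARF, MON1A and CADM4, of the 15 expressed genes of highest enrichment, also stood on whole multiples of 1.065. The 9.58-fold peak of ACTA2 and the 45.8-fold peak of RNF219 did so too, and the ranking of these genes carries the same limit. The 149-fold peak of RNF219 is given as a whole number, so whether it lies on a step cannot be told. Highest values of several gene lists below are also on a step. They include 36.2-fold in SLC37A3, 30.9-fold in SETD5, 19.2-fold in MYH2, 13.8-fold in EIF4H and PSMD13, 12.8-fold in ALDOA and 10.6-fold in RPS7. Ranks by such values carry this limit as well. An example of a long peak in a gene listed at 0 is that of ADGRB3, an adhesion receptor known from brain, with 14.9-fold enrichment over 5241 nt in 33 exon blocks. Median highest fold enrichment was 8.52 in the 52 genes at 0 FPKM that held a peak.

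Peaks were mostly few per gene. Of expressed genes with a peak, 4879 (54.5%) had 1, 2442 (27.3%) had 2, 968 had 3, 390 had 4 and 278 (3.10%) had 5 or more. The median genomic span of the gene was 17200 bases with 1 peak, 25001 bases with 2 and 90576 bases with 6 or more, against 15117 bases without a peak. Expressed genes without a peak had a median of 8.80 FPKM, and those with 6 or more peaks had 3.71 FPKM. Median highest fold enrichment was 3.47 in genes with 1 peak and 5.45 in genes with 6 or more, where the maximum is taken over more values.

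CENPF, a large protein of the kinetochore, had the most peaks, 17, of which 14 lay in exons, with 1.91 to 10.1-fold enrichment. CENPF itself was low in these cultures, at 0.250, 0.432 and 0.196 FPKM. NEB, which encodes the giant thin filament protein nebulin, followed with 15 peaks, all exonic. NEB was a clearly expressed gene, at 42.6, 36.0 and 45.2 FPKM, but its peaks were weak, between 1.09-fold and 2.99-fold. Its strongest peak was annotated to exon 114 of 145 and ran over 23 exon blocks. FAT3, a giant cadherin, had 14 peaks of up to 27.7-fold, all exonic, at 0.218 ± 0.0411 FPKM. ENSBTAG00000038635 had 12 peaks at 2.03 ± 0.0977 FPKM. ZDHHC8, a palmitoyltransferase, had 11 peaks, 10 of them annotated to the 3′UTR, with 37.3-fold and 27.7-fold as the highest. The strongest of them overlaps CCDC188 on the other strand. The genes HIVEP3, MKI67 and SORCS3 also had 11 peaks each. MKI67, the proliferation antigen Ki-67, stood at 0.772, 1.2 and 0.712 FPKM, and SORCS3 at only 0.00731 ± 0.00636 FPKM. The strongest peak booked to SORCS3 overlaps ADAM8 in the gene table.

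Of the 10 genes with 10 peaks, the 7 with the highest fold enrichment are given. The giant cytoskeletal and anchoring genes among them were SYNE2, a nesprin of the nuclear envelope, with 1.67 to 5.86-fold enrichment, AKAP9, an A-kinase anchor, with 10 exonic peaks of 1.26 to 5.44-fold, and CMYA5, a costamere protein of striated muscle, with 1.23 to 6.92-fold at 8.45, 7.48 and 8.38 FPKM. TACC2, a centrosomal coiled-coil protein, reached 12.8-fold, the zinc finger factors ZFHX2 and HIVEP1 8.09-fold and 6.39-fold, and ENSBTAG00000030474 19.2-fold. The strongest peaks of ZFHX2 and ENSBTAG00000030474 overlap THTPA and ENSBTAG00000049493. Across the 15 genes, 8 had a mean below 1 FPKM in the DM inputs.

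**Figure D3:**
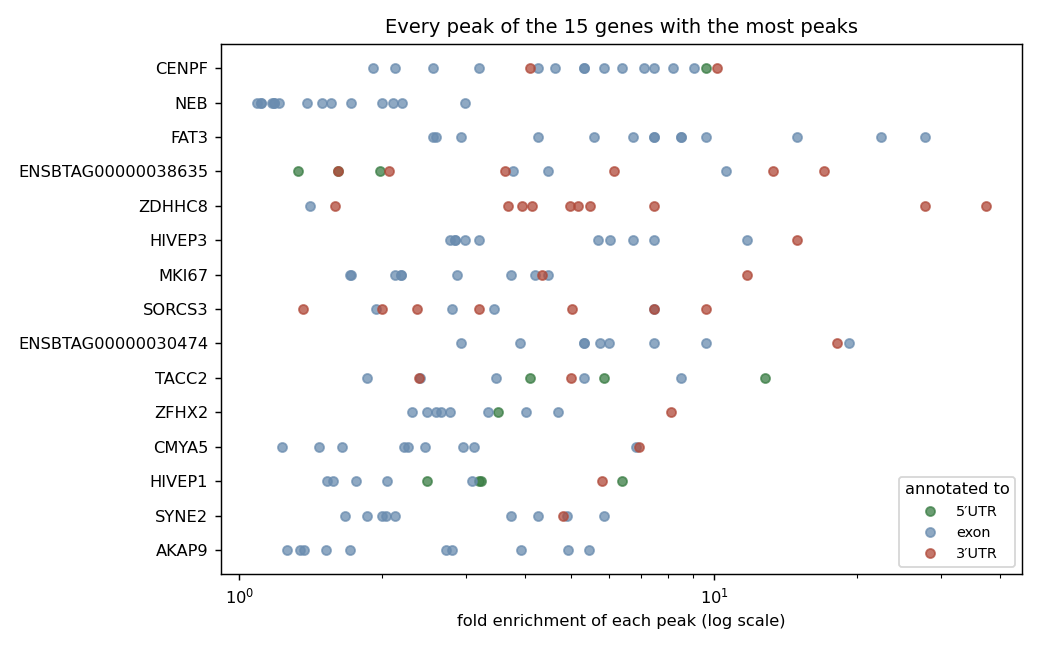
Every peak of the 15 genes with the most peaks, by fold enrichment (x axis, log scale), coloured by annotation. CENPF (17 peaks) ranges from 1.91-fold to 10.1-fold, the 15 exonic NEB peaks stay at or below 2.99-fold, and ZDHHC8 reaches 37.3-fold in its 3′UTR.

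In the 4078 expressed genes with at least 2 peaks, the highest fold enrichment exceeded the lowest by a median ratio of 2.20. The strongest of these peaks was annotated to the 3′UTR in 55.0% of genes (53.5 to 56.5%), although 44.1% of all peaks in these genes were. Exon peaks were the strongest in 22.2% of genes and made up 35.3% of the peaks, and 5′UTR peaks were the strongest in 22.8% and made up 20.6%. Of all expressed genes with a peak, 3536 (39.5%) had peaks only in the 3′UTR, 1026 (11.5%) only in the 5′UTR, and 1453 (16.2%) in both.

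Several of the most abundant transcripts had no peak. FN1, the matrix glycoprotein fibronectin, was the highest, at 4443, 4777 and 4274 FPKM. VIM, the intermediate filament vimentin, had 1663 ± 103 FPKM, ACTG1, a cytoplasmic actin, had 1658 ± 72.8 FPKM, and the unnamed ENSBTAG00000053911 had 1567 ± 110 FPKM. ENSBTAG00000053911 is a short entry (chr9:14662145-14662321) close to the 3′ end of COL12A1 (chr9:14663442-14776366) on the same strand, and COL12A1 had peaks. CTSK, a matrix-degrading cathepsin, had 1199 ± 74.7 FPKM, PPIA, a prolyl isomerase, 1212 ± 94.1 FPKM, and FTL, the ferritin light chain, 1189 ± 34.7 FPKM. No peak of any other entry lay in the span of these 7 genes. Ribosomal proteins made up 12 of the 20 highest genes without a peak. RPLP1 at 3097 FPKM and RPLP0 at 2068 FPKM led them, and RPS18, RPL37, RPS27, RPS12, RPL23, RPL9, RPL23A, RPS2 and RPL13A were among those between 972 and 1497 FPKM.

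Peaks inside some of these genes were booked to other entries. Introns of ribosomal protein genes host small nucleolar RNAs, which have gene entries of their own, and the annotation booked peaks there to the short entry. The span of RPS12 held a peak of 503 nt and 3.85-fold booked to RF00186, an entry of 73 bases, and that of RPL23 a peak of 533 nt and 2.08-fold booked to RF00412. TPT1, a growth-related translationally controlled protein at 3102 FPKM and the remaining one of the 20 genes, held a 1.51-fold peak booked to RF00322. RPL37, RPL23A and RPL13A each held such peaks on their own strand, the highest at 8.52-fold over 71 nt in RPL23A, and RPS2 held a pair whose entry lies on the other strand. In all, 352 peaks (1.69%) belonged to entries under 400 bases. Of the 2256 expressed genes without a peak, 1889 (83.7%) had no peak block of any entry in their span, 367 had one on either strand and 132 had one on their own strand.

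The most abundant genes that did have a peak were led by SPARC, a secreted matrix protein, at 12375, 13181 and 11824 FPKM. Both of its peaks were weak, at 1.51-fold in the 5′UTR and 1.25-fold in the 3′UTR. COL1A1, a chain of collagen I, had 7584, 7371 and 7305 FPKM and a 3′UTR peak of 6.46-fold (chr19:36473741-36474513), whereas the partner chain COL1A2, at 5496 ± 265 FPKM, had 1.90-fold in its 3′UTR. COL3A1 carried 3 exonic peaks of at most 1.31-fold at 3135 ± 163 FPKM. Of the muscle and cytoskeletal genes, the myosin light chain MYL6 had 3.14-fold at 1760.0 ± 58.4 FPKM, the actin monomer binder TMSB10 1.77-fold at 1716 FPKM and the cytoplasmic actin ACTB 1.87-fold at 1676 FPKM. ACTA2, smooth muscle actin, reached 9.58-fold in a 5′UTR peak of 120 nt that FAS overlaps on the other strand, and 2.08-fold in its 3′UTR. MMP2, a gelatinase, had 3.51-fold and COL12A1 2.45-fold. Of all 533 genes of at least 100 FPKM, 394 (73.9%) had a peak.

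By position, 9409 peaks (45.3%, 44.6 to 45.9%) were annotated to a 3′UTR, 3794 (18.2%, 17.7 to 18.8%) to a 5′UTR and 7587 (36.5%, 35.8 to 37.2%) to other exons. Median fold enrichment was 3.83 in 5′UTRs (95% interval 3.73 to 3.95), 3.63 in 3′UTRs (3.57 to 3.73) and 2.84 in other exons (2.77 to 2.89). Median peak length in these classes was 540, 478 and 330 nt, and the part of length in this difference was not tested. Within the exon class, internal exons held 4620 peaks with a median of 2.44, first exons 1389 with 3.62, last exons 967 with 3.19, and single-exon transcripts 611 with 4.26. Fold enrichment of at least 10 was reached by 3.94% of internal exon peaks, 9.15% of 3′UTR peaks and 14.2% of peaks in single-exon transcripts. The share of peaks in 3′UTRs was 38.3% in genes of up to 0.1 FPKM, 31.2% at 0.1 to 0.5 FPKM, 42.5% at 1 to 5 FPKM, 53.0% at 10 to 50 FPKM and 59.6% over 500 FPKM. Of the exon peaks, 296 (3.90%) were annotated to an exon of a gene other than the one the peak was booked to.

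**Figure D4:**
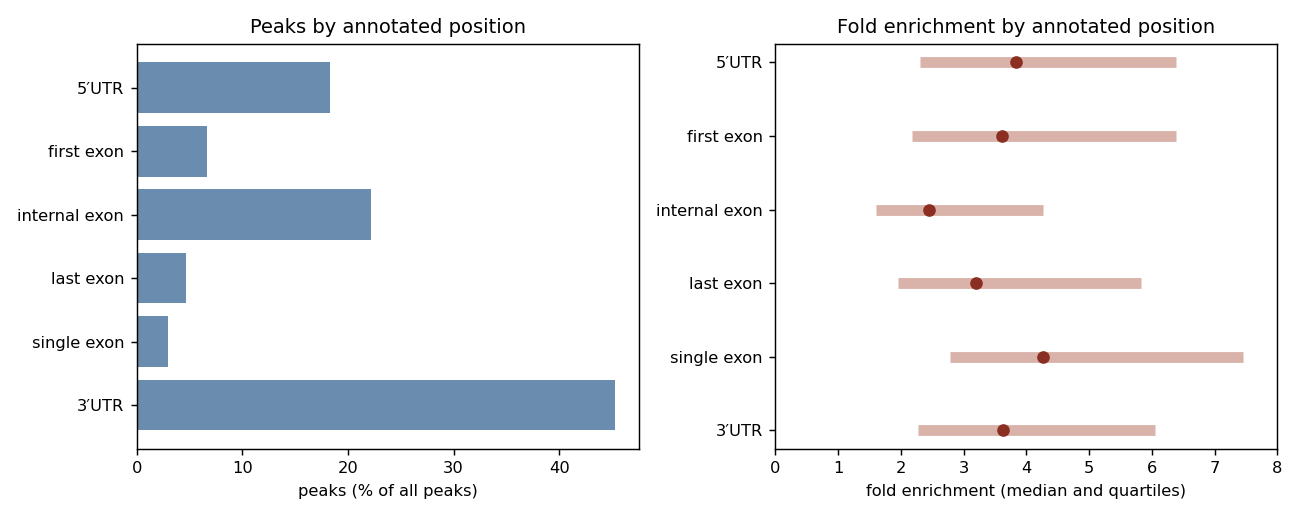
Left, percent of the 20790 peaks at each annotated position. Right, median fold enrichment (points) and quartiles (bars). The 3′UTR holds 45.3% of peaks, and internal exons have the lowest median, 2.44.

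The enriched stretch of a peak, summed over its exon blocks, had a median of 421 nt and ranged from 55 to 8538 nt. More than 1 exon block was present in 10760 peaks (51.8%, 51.1 to 52.4%), and in these peaks the exon blocks made up a median of 12.99% of the genomic extent. Longer peaks were stronger. In the 5303 shortest peaks (55 to 210 nt) median fold enrichment was 1.94 (1.90 to 1.98), and in the 5198 longest (839 to 8538 nt) it was 5.05 (4.98 to 5.14). Peaks of 6 or more blocks had a median of 4.36 and those of 1 block 3.18. Multi-block peaks made up 67.7% of 5′UTR peaks, 74.5% of internal exon peaks and 39.9% of 3′UTR peaks.

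The longest peak lay in VCAN, the matrix proteoglycan versican, over 8538 nt in 5 blocks at 5.60-fold (chr7:83379451-83432291). VCAN had 51.9, 51.5 and 52.3 FPKM. AHNAK, a giant scaffold protein, had an unbroken peak of 7644 nt at 3.08-fold and 235 ± 13.4 FPKM. XIRP2, a protein of muscle attachment sites, had 7510 nt at 6.25-fold, and GOLGB1, the Golgi protein giantin, 7373 nt at 4.97-fold. AKAP6, which anchors kinase A at the nuclear envelope of muscle, had its only peak over 6921 nt in 11 blocks at 3.57-fold. The remaining peaks of the 10 longest were those of PLEC (plectin, 6894 nt), ARHGAP35 (a GTPase activating protein, 6857 nt), ANKRD11 (a chromatin regulator, 6820 nt), ZNF318 (6477 nt) and SPEN (a transcriptional repressor, 6450 nt), with 5.22 to 8.53-fold enrichment.

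The peaks with the most exon blocks were all of collagens, genes built of many short exons. COL5A1 had a peak of 57 blocks and 3925 nt at 3.74-fold and 774 ± 12.9 FPKM, COL5A3 one of 42 blocks at 6.28-fold, COL11A2 one of 40 blocks at 16.0-fold and only 0.0417 ± 0.0157 FPKM, COL4A1 one of 38 blocks at 2.97-fold, and COL27A1 one of 36 blocks at 10.1-fold. Of the 21 expressed collagens, 20 (95.2%, 77.3 to 99.2%) had a peak, next to 79.9% of all expressed genes, and the mean was 3.40 peaks per gene with a peak. Exons outside UTRs held 63.2% of their 68 peaks, compared with 31.4% of the peaks of all expressed genes. The highest values were 38.3-fold in a first exon of COL27A1, 13.2-fold in COL18A1 and 9.58-fold in COL8A1, and COL27A1 and COL11A1 had 6 peaks each. COL14A1 was the expressed collagen without a peak, at 47.7 ± 1.14 FPKM.

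Transcripts of the m6A machinery were among those with a peak. All 9 measured writer genes had one (100%, 70.1 to 100%), an interval that includes the 79.9% of all expressed genes. ZC3H13, which holds the writer complex in the nucleus, was the strongest, at 20.3-fold in its 3′UTR and 13.02 ± 0.379 FPKM. The catalytic subunit METTL3 had 2.05-fold as its highest value and its partner METTL14 5.01-fold. The adaptors WTAP, VIRMA, RBM15, RBM15B and CBLL1 lay between 3.89-fold and 5.93-fold, and METTL16, a separate methyltransferase, at 4.76-fold. The eraser FTO had 5 peaks of up to 4.63-fold at 24.0 ± 0.694 FPKM, and ALKBH5 had 1 peak of 1.36-fold. Of 11 measured readers, 10 had a peak (90.9%, 62.3 to 98.4%, which also includes 79.9%). Highest fold enrichment was 11.7 in YTHDF2, 9.73 in YTHDC1, 7.99 in YTHDF3 and 4.13 in YTHDF1, and YTHDC2 had no peak at 5.21 ± 0.145 FPKM. The IGF2BP readers had 1.70-fold (IGF2BP1), 3.78-fold (IGF2BP2) and 3.49-fold (IGF2BP3), while HNRNPA2B1, HNRNPC and PRRC2A had 5.69-fold, 2.75-fold and 5.36-fold.

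Of 19 expressed transcription factors of myogenesis, 17 had a peak (89.5%, 68.6 to 97.1%), next to 79.9% of all expressed genes. MYOG, which drives terminal differentiation, stood out among them by a single 3′UTR peak of 15.6-fold at 250.5, 226 and 253 FPKM. MYOD1, the determination factor, had a 3′UTR peak of 4.57-fold at 24.8 ± 1.17 FPKM. MYF5 and MYF6 had no peak, at 2.25 ± 0.261 and 3.89 ± 0.419 FPKM. The MEF2 factors differed, with 3.90-fold in MEF2A, 2.71-fold in MEF2C and 1.98-fold in MEF2D. SRF had 5 peaks of up to 4.55-fold. SIX2, SIX4 and SIX5 reached 4.80-fold, 7.57-fold and 4.53-fold, EYA3 and EYA4 3.07-fold and 7.67-fold, and the E proteins TCF3, TCF4 and TCF12 6.73-fold, 2.77-fold and 2.10-fold. PITX3 had 2.13-fold. PAX7, the satellite cell factor, was at 0.0624 ± 0.0339 FPKM without a peak, and PAX3, EYA1 and MEF2B, all below 1 FPKM, had 2 peaks each. The 3′UTR held 66.7% of the 33 peaks of these expressed factors.

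Among the other myoblast markers, CDH15, a cadherin of satellite cells, had 2.21-fold, SDC4 had no peak at 46.6 ± 3.22 FPKM, and MSTN (myostatin) was at 0.146 FPKM. Of the other myotube markers, the intermediate filament DES had 4.78-fold at 488 ± 4.28 FPKM, the fusion factors MYMK and MYMX 5.45-fold and 3.43-fold, the calcium channel RYR1 12.8-fold in 1 of 5 exonic peaks, the calcium pump ATP2A1 4.89-fold, the acetylcholine receptor subunit CHRNA1 7.76-fold, CAV3 6.73-fold and the creatine kinase CKM 2.01-fold. MYH3 had a 3′UTR peak of 5.46-fold and MYH8, the perinatal myosin, 7.10-fold. TNNC2, TNNC1, TNNI1 and TNNT3, troponin subunits, had 3.15-fold, 2.73-fold, 2.20-fold and 4.97-fold. The M-band protein MYOM2 reached 8.02-fold and the Z-disc protein ACTN2 1.28-fold. MYL1 and ACTA1 had no peak, at 50.0 ± 5.04 and 70.0 ± 10.95 FPKM.

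Sarcomere genes as a group had a peak in 39 of 45 expressed members (86.7%, 73.8 to 93.7%), an interval that includes the 79.9% of all expressed genes, with a median highest fold enrichment of 3.95 next to 4.00 in all expressed genes. The highest were MYH2 at 19.2-fold, the myosin chaperone UNC45B at 12.8-fold and OBSL1 at 10.6-fold. MYL6B and MYLPF were the most abundant members without a peak, at 898 ± 49.1 and 867 ± 32.1 FPKM, and ACTA1 the third. NEB, MYOM1 with 5 and LDB3 with 4 held the most peaks.

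Fibroblast markers beside the collagens comprised LUM, with 2.68-fold, FAP, with 3.47-fold, THY1, with 3.18-fold, and PDGFRA, with 7.26-fold in its 3′UTR. DCN, the proteoglycan decorin, had no peak at 667 ± 12.5 FPKM, nor did TCF21. TAGLN had none at 715 ± 63.7 FPKM, whereas CNN1 and SMTN had 3.24-fold and 3.38-fold and MYH11 6.39-fold. Of the adipocyte markers, PLIN1, CIDEC, PPARG and LEP held peaks of 4.26-fold, 4.61-fold, 12.8-fold and 8.52-fold, and FABP4, LPL and ADIPOQ none. Of the endothelial markers, TEK and CLDN5 held peaks of up to 16.0-fold and 8.52-fold, and PECAM1, VWF and CDH5 none. Of the immune markers, CD68 and CSF1R held peaks of up to 18.6-fold and 8.52-fold and AIF1 none, and the Schwann cell marker S100B had 2.92-fold.

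Among the gene lists, the lowest share of genes with a peak was found in cytosolic ribosomal proteins. Of 77 expressed members 34 had a peak (44.2%, 33.6 to 55.3%), and their median highest fold enrichment was 2.10. At 100 FPKM or more, 32 of 73 members had a peak (43.8%, 33.0 to 55.2%) next to 362 of 460 other genes of that level (78.7%, 74.7 to 82.2%). Both sets also differed in median genomic span, at 3796 bases in the former and 14264 bases in the latter. RPS7 reached 10.6-fold, RPL15 7.06-fold and RPL7L1 6.07-fold, and RPSA and RPL35 had 3 peaks each. Nuclear subunits of the respiratory chain had a peak in 50 of 76 (65.8%, 54.6 to 75.5%), with a median highest fold enrichment of 2.14, and NDUFV1, COX6A1 and NDUFB3 led with 7.45-fold, 6.39-fold and 5.67-fold. NDUFV3 had 3 peaks. ATP5F1A, ATP5MG and ATP5MC2, subunits of ATP synthase, had none at 174, 162 and 160.1 FPKM.

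For proteasome subunits, aminoacyl-tRNA synthetases and translation initiation factors the interval of the share with a peak includes 79.9%. Proteasome subunits had a peak in 27 of 36 (75.0%, 58.9 to 86.2%) at a median of 2.29 next to 4.00 in all expressed genes, with PSMD13 and PSMD3 at 13.8-fold and 13.3-fold and PSMC5 at 7.82-fold. PSMD13, PSMD9, PSMC1 and PSMC3 had 2 peaks each, and PSMB3, PSMB4 and PSMB2 were the most abundant without one. The strongest peak of PSMD13 overlaps COX8B and NBAS. Aminoacyl-tRNA synthetases had a peak in 18 of 20 (90%, 69.9 to 97.2%) at a median of 2.00. MARS at 8.52-fold, YARS at 5.78-fold, AARS at 5.00-fold and EPRS at 4.36-fold exceeded the rest. HARS and DARS stood at 3.16-fold and 3.41-fold and NARS and SARS at 2.78-fold and 2.66-fold. CARS, IARS, FARSB, QARS, VARS, RARS, TARS, LARS, GARS and WARS lay between 1.25-fold and 2.14-fold, and KARS and FARSA had none. Translation initiation factors had a peak in 37 of 49 (75.5%, 61.9 to 85.4%) with a median of 4.42, led by EIF4H (13.8-fold), EIF2B2 (12.8-fold) and EIF4G1 (11.1-fold). EIF4G1, EIF4G3 and EIF2S2 had 4 peaks each, and EIF1, EIF4G2 and EIF3K had none at 363, 313 and 135 FPKM.

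Glycolysis was split by gene. GAPDH had no peak at 839 ± 21.7 FPKM, nor did LDHA, PGAM1, GPI, ALDOC and PGAM2, whereas ALDOA reached 12.8-fold in its 5′UTR at 358 ± 21.9 FPKM. PKM had 3.52-fold, ENO1 1.74-fold, TPI1 1.16-fold, LDHB 2.05-fold and the muscle enolase ENO3 2.19-fold. The hexokinases HK1 and HK2 had 7 and 2 peaks of up to 4.79-fold and 3.60-fold, and the phosphofructokinases PFKP, PFKM and PFKL 8.52-fold, 2.81-fold and 1.60-fold. The strongest peaks of PFKP, HK1, ENO3 and TPI1 overlap genes on the other strand. In all, 11 of 17 enzymes had a peak (64.7%, 41.3 to 82.7%, which includes 79.9%).

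Cyclins and cyclin-dependent kinases had a peak in 23 of 35 expressed members (65.7%, 49.2 to 79.2%), next to 79.9% of all expressed genes. Their median was 4.32. CDK10, CCNL1 and CCNT1 were the highest, at 8.12-fold, 7.45-fold and 7.23-fold, and CCNT2 and CDK13 had 3 peaks each. The strongest peak of CDK10 overlaps SPATA2L on the other strand. CCNG1, CDK4 and CCND1 were the most abundant without a peak, at 136, 37.9 and 21.3 FPKM. Of 14 expressed histones 10 had a peak (71.4%, 45.4 to 88.3%), an interval that includes the 79.9% of all expressed genes. Their median was 2.04, and HIST2H2AC at 5.32-fold, HIST1H2AC at 4.45-fold and HIST1H2BB at 2.63-fold were the highest. H3F3B, H2AFZ and HIST1H2BD had none, and counts of near-identical histone copies are uncertain.

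At the other end stood regulators of chromatin and transcription. All 33 expressed histone lysine methyltransferases and demethylases had a peak (100%, 89.6 to 100%), with a mean of 3.30 peaks and a median highest fold enrichment of 4.78. SETD5 reached 30.9-fold in its 3′UTR at 31.1 ± 1.26 FPKM, SUV39H2 11.7-fold and EZH1 7.65-fold. KMT2C had 9 peaks, KMT2D 7 and KMT2A 6, the majority in exons outside the UTRs. Their median genomic span of 56356 bases exceeded that of all expressed genes, 21070 bases. Of 208 expressed ZNF zinc finger genes 194 had a peak (93.3%, 89.0 to 95.9%) at a median of 4.66. After ZNF784 came ZNF692 at 18.5-fold and ZNF326 at 15.2-fold. ZNF644, ZNF646 and ZNF532 had 6 peaks each, and ZNF207, ZNF511 and ZNF277 had none.

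All 16 expressed KLF and SP factors had a peak (100%, 80.6 to 100%), an interval that starts just above the 79.9% of all expressed genes, with KLF13 (8.31-fold), KLF7 (6.80-fold) and KLF11 (5.82-fold) the highest and KLF16 (1.72-fold) the lowest. KLF2, KLF3, KLF4, KLF5, KLF6, KLF9, KLF10 and KLF12 lay between 2.89-fold and 4.61-fold, and SP1, SP2, SP3 and SP4 between 3.68-fold and 5.06-fold. KLF15, SP7, KLF14 and KLF1 held peaks below 1 FPKM, and SP6, SP8 and SP9 had none. All 16 expressed immediate early factors, KLF factors of that list included, had one too, with the same interval. JUN reached 16.9-fold and IER2 10.6-fold, followed by ATF3 (6.35-fold), FOSL1 (5.35-fold), EGR1 (5.31-fold), FOSL2 (5.00-fold), EGR2 (4.44-fold), FOS (4.14-fold), JUND (3.99-fold), EGR3 (3.26-fold), MYC (2.78-fold) and JUNB (1.79-fold). FOSB, at 0.545 FPKM, had 30.9-fold. HOX genes, which pattern the body axis, had a peak in 21 of 23 expressed members (91.3%, 73.2 to 97.6%) at a median of 5.18, with HOXB9, HOXA4 and both HOXA3 and HOXC5 highest (7.99-fold, 7.52-fold and 6.39-fold). HOXA3 also had the most peaks, 4. HOXA10 and HOXD4 had none.

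Of 19 expressed receptors for Wnt, Notch and TGF-beta family ligands, 17 had a peak (89.5%, 68.6 to 97.1%), at a median of 3.90. The intervals of the HOX genes and of these receptors include 79.9%. FZD4 was the highest at 9.31-fold, followed by FZD7 (6.89-fold), BMPR1B (6.60-fold), ACVR1 (5.53-fold), BMPR2 (5.38-fold), LRP6 (5.02-fold), ACVR2A (4.59-fold) and TGFBR1 (4.11-fold). FZD1 and BMPR1A both had 3.90-fold, and FZD8, NOTCH2, FZD3, NOTCH1, FZD6, FZD2 and FZD9 between 2.26-fold and 3.85-fold. TGFBR2 and TGFBR3 had none, at 14.0 ± 0.227 and 17.4 ± 0.409 FPKM. NOTCH3, ACVR2B, FZD5 and NOTCH4 held peaks below 1 FPKM. Solute carriers had a peak in 146 of 171 (85.4%, 79.3 to 89.9%, which includes 79.9%) at a median of 4.10, with SLC37A3 at 36.2-fold, SLC9A5 at 18.1-fold and SLC37A4 at 16.7-fold. SLC39A10 had 5 peaks, and SLC44A1, SLC25A1 and SLC30A9 had none. All 5 expressed protocadherins had a peak (56.6 to 100%, which includes 79.9%) at a median of 7.45. The 9 peaks booked to PCDHGC3 lie in a cluster of genes that share exons, so their gene is uncertain. PCDHGA3 reached 12.8-fold, PCDH7 8.52-fold, PCDHGA5 6.92-fold and PCDH18 5.51-fold. Below 1 FPKM, PCDH17, PCDH1, PCDH9, PCDH20, PCDH10, PCDHAC2, PCDHGC4, PCDH12 and PCDHA2 held peaks, and PCDHA13, PCDHA4, PCDHA3, PCDH8 and PCDHB1 did not.

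**Figure D5:**
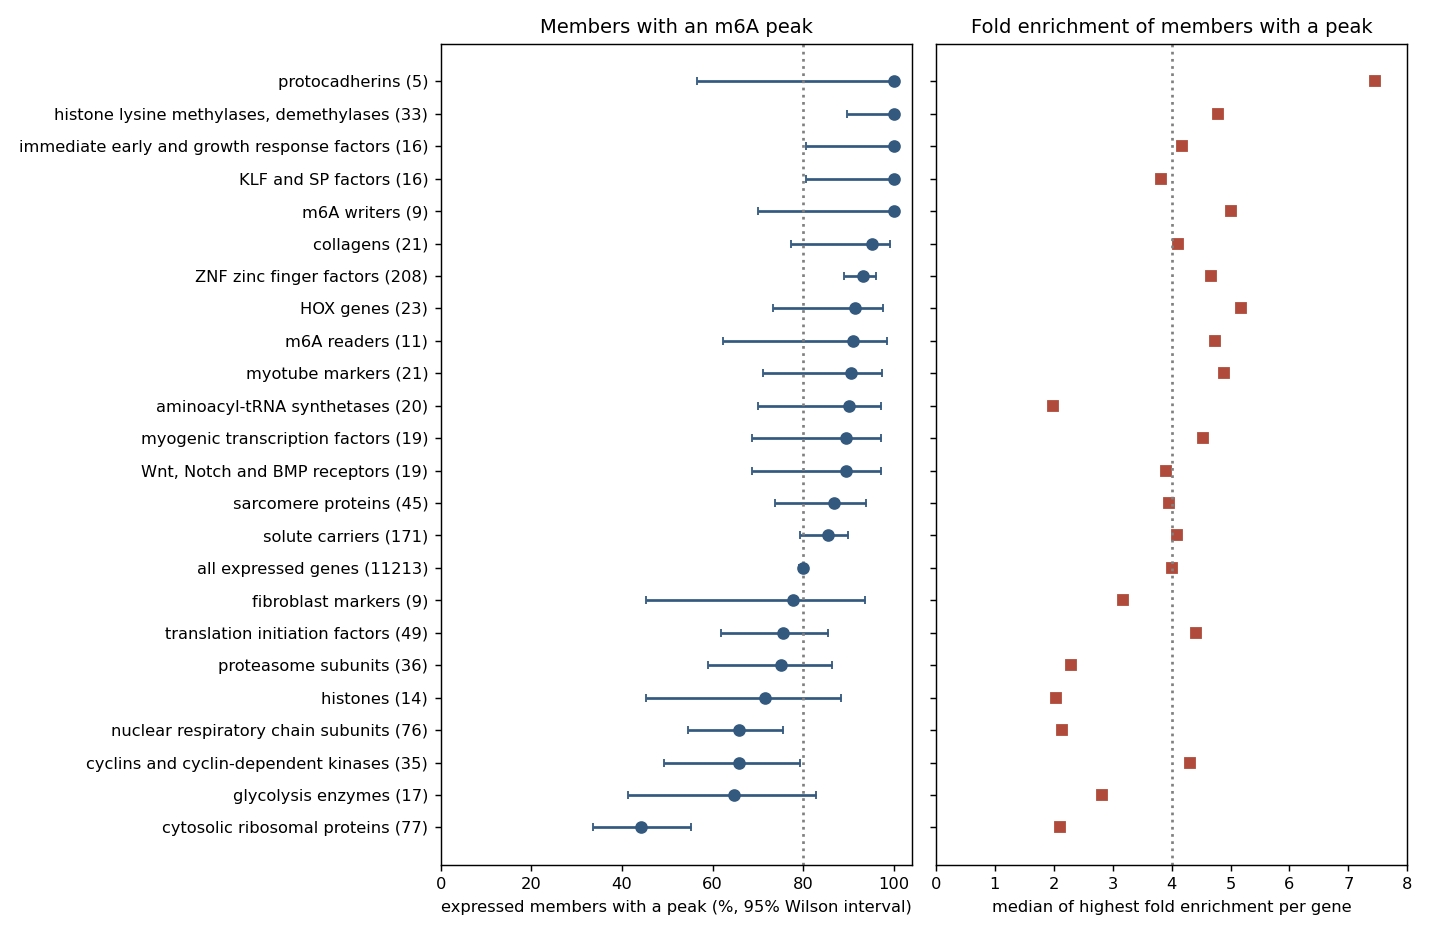
Gene lists of at least 5 expressed members, with the number of members in brackets. Left, percent of expressed members with a peak and its 95% Wilson interval; right, median of the highest fold enrichment of members with a peak; dotted lines mark all expressed genes (79.9% and 4.00). Cytosolic ribosomal proteins have the lowest share, 44.2%, and aminoacyl-tRNA synthetases the lowest median, 2.00.

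The authors' GO and KEGG columns were described in the same way. GO terms were present for 10266 expressed genes and KEGG pathways for 4190, and 1030 GO terms and 242 pathways held at least 20 expressed genes. The terms named were picked for their extreme values among all of these, and their shares stand beside 79.9% for all expressed genes, so nothing particular to a term is read from them. All expressed genes had a peak in 21 GO terms, the largest being negative regulation of phosphatase activity and neural tube development (29 genes each), embryonic limb morphogenesis and negative regulation of BMP signaling (28 each), negative regulation of osteoblast differentiation (27), protein self-association (26), and cell fate commitment and retina development (24 each). The smallest shares belonged to the cytosolic small ribosomal subunit (18 of 50, 36.0%), cytoplasmic translation (47.5%), proton transmembrane transporter activity (47.8%), the large ribosomal subunit (48.1%), the cytosolic large ribosomal subunit (52.0%), ATPase activity coupled to transport (52.2%), structural constituent of ribosome (112 of 209, 53.6%) and the cyclin-dependent kinase holoenzyme (54.5%). In KEGG the highest shares were those of Basal cell carcinoma, made up largely of Wnt and Hedgehog genes (40 of 41, 97.6%), Neuroactive ligand-receptor interaction (96.1%), NF-kappa B signaling (93.9%), Protein digestion and absorption (93.8%), pluripotency signaling (93.7%), Breast cancer (93.4%), and Bladder and Thyroid cancer (93.3% each). ABC transporters (10 of 20, 50.0%), Tryptophan metabolism (54.5%), Propanoate metabolism (56.0%), Protein export (56.5%), the Citrate cycle (57.7%), Ribosome (58.7%), Parkinson disease (60.7%) and Fatty acid elongation (60.9%) had the lowest. No test was made of any term.

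By median highest fold enrichment, the leading GO terms were positive regulation of DNA repair (5.93), FAD binding (5.89), steroid hormone signaling and G protein-coupled receptor activity (5.82 each), RNA phosphodiester bond hydrolysis (5.81), the small-subunit processome (5.80), protein kinase B signaling (5.69) and retina development (5.68). The trailing terms were spliceosomal snRNP assembly (1.94), the mitochondrial ATP synthase complex (1.98), 3 terms of proteasomal or other protein breakdown (2.01, 2.04 and 2.19), the cytosolic small ribosomal subunit (2.10), oxidoreductases acting on CH-OH groups (2.13) and the respirasome (2.19). KEGG gave Cytokine-cytokine receptor interaction (5.45), Inflammatory bowel disease (5.36), Ribosome biogenesis (5.21), NF-kappa B signaling (5.14), Cocaine addiction (5.08), Jak-STAT signaling (5.05), Lysine degradation (4.98) and Neuroactive ligand-receptor interaction (4.93) at the high end. At the low end stood Propanoate metabolism (1.98), Oxidative phosphorylation (2.24), Parkinson disease (2.27), Proteasome (2.31), Ribosome (2.36), Huntington disease (2.38), Alanine, aspartate and glutamate metabolism (2.39) and Alzheimer disease (2.46). Ribosome biogenesis and Ribosome, both picked as extremes, had median levels of 15.1 and 268 FPKM, and their difference was not tested.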

How the data were processed

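m6A-seq of 3 DM samples (an input and an IP library each) was used. Paper and labels name HISAT2 and ARS-UCD1.2; for trimming the paper names Trimmomatic and the submitters' processing notes cutadapt and fastp. FPKM values of the inputs were computed by the authors with StringTie and deposited per gene. Peaks were called by the authors with exomePeak on the DM libraries together and annotated with ChIPseeker. The deposited fold enrichment is a linear ratio of IP over input, the deposited score of a peak is its unadjusted p-value (at most 0.05), and a deposited log10 false discovery rate was used for thresholds. Deposited exon block counts and lengths gave peak lengths. The paper gives reads per library, but reads per peak were not available, so depth behind a peak is unknown.

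Peaks were joined to genes by the deposited gene identifier in Python 3.11.15 (pandas 2.3.3, numpy 2.4.6, scipy 1.17.1; figures with matplotlib 3.10.9), checked on simulated data. Of the peaks, 157 named genes outside the FPKM table. No test was made, since a peak has no replicate; shares have 95% Wilson intervals and medians order-statistic intervals, which cover counting error only. Named were the 15 expressed genes of highest fold enrichment (5 at any FPKM), the 15 with most peaks, the 20 most abundant without and 10 with a peak, the 10 longest peaks and 5 of most blocks, the 8 GO and KEGG terms at each end, all members of lists of up to 25 genes, and in larger lists the 3 highest, the 3 with most peaks and the 3 most abundant without one. Some genes that this rule names are not reported here. Members and lists were chosen with earlier results of these data known. GM values and sequences were not used here.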

Additional observations from a re-analysis of the deposited data

How the results depend on the processing

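Peaks carry no replicate error, and depth behind a peak is unknown; FPKM of low genes rests on few reads. No paired analysis was possible because the result comes from no test. Repeated entries counted once (20788 peaks) left the measures within their intervals or the spread between inputs, as did leaving out an input: the share of expressed genes with a peak was 79.9 to 80.0%, rho of FPKM with highest fold enrichment −0.209 to −0.206 and with number of peaks −0.0689 to −0.0674. At a false discovery rate under 0.05 (18471 peaks), the share of expressed genes with a peak was 78.3%, median fold enrichment 3.44, the 3′UTR share 47.3%, genes with exactly 1 peak 59.1% (55.5% as deposited), median length 479 nt, multi-block peaks 54.1%, and both rhos −0.216 and −0.0275. Under 0.001 (14164 peaks) these were 73.2%, 3.64, 50.9%, 67.2%, 598 nt, 60.1%, −0.249 and 0.0645, and the 5′UTR share 19.0%. At fold enrichment of at least 2 (15873 peaks) they were 68.2%, 4.26, 48.0%, 65.2%, 564 nt, 53.8%, −0.143 and −0.137, and the 5′UTR share 19.5%. With genes expressed from 0.5 FPKM the share with a peak was 78.8% and the rhos −0.237 and −0.0401; from 5 FPKM 80.9%, −0.200 and −0.0945; without a filter 63.3%, −0.394 and 0.373. The rho of FPKM with number of peaks (−0.0666 as deposited) thus changed sign under the strictest false discovery rate and without the FPKM filter, and no direction is drawn from it. The 15 genes of highest enrichment could not change under these peak thresholds. Their strongest peaks had at least 42.6-fold enrichment and a log10 false discovery rate of −10.8 or lower. Of these genes, 11 remained from 0.5 FPKM, and 9 from 5 FPKM and without a filter. Of the 20 most abundant genes without a peak, 14 remained on that list at fold enrichment of at least 2. The others gained no peak and were displaced by more abundant genes whose peaks were all weaker than that. In an alternative chosen after seeing the data, peaks of entries under 400 bases or outside the FPKM table were also counted to the gene around them on the same strand: 52 expressed genes gained a peak (80.3% with one), and 13 of the 20 genes remained.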
